A study of Mus musculus with 30 samples.

Results

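Fgf5, Otx2, Pim2, Cd24a, Sall2 and Tead2 are 6 genes grouped as genes of the primed epiblast, and their signals were followed in mouse embryonic stem (ES) cells and in the neural aggregates made from them. The members are the probe sets whose annotation names one of these genes and no other. The 3 chips held 8 such probe sets among 36701 that are not controls, and they covered 5 of the 6 genes, out of 15964 genes that some probe set named alone. No probe set naming Otx2 alone was among them, so Otx2 was not analysed here. The grouping came with the expectation of a passing increase in aggregate cells outside the neural sort, set against Sox1-positive cells. The members were chosen with earlier results of these data known, so a match to this expectation is not a test of it. Samples outside the Sox1-positive sort end on day 3, so a later fall in them could not be seen. Among the 5 measured genes, Fgf5 and Pim2 had their highest signals in aggregate cells outside that sort, whereas Cd24a and 1 of 2 probe sets each of Sall2 and Tead2 had theirs in Sox1-positive cells. The second probe sets of Sall2 and Tead2 were highest on day 1 and in day 3 Sox1-negative cells.

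All samples came from a 129-derived Sox1-GFP reporter line, in which green fluorescence marks cells that use Sox1, a transcription factor gene of the early neuroectoderm. The cells were grown as floating aggregates in bacterial-grade dishes, in GMEM with Knockout Serum Replacement (SFEB culture), and RNA was taken from cells sorted by flow cytometry. The groups were Sox1-positive cells of days 3, 4 and 5 (1 sample each), Sox1-negative cells of day 3 (1 sample), E-cadherin-negative and E-cadherin-positive cells of day 2 (1 sample each), day 1 aggregates for which no sort is labelled (1 sample), and E-cadherin-positive ES cells (3 samples). RNA of every sample was run on 3 Affymetrix chips, U74Av2, U74Bv2 and U74Cv2, which made 30 arrays for 10 samples. Nothing says that the 3 ES samples came from separate cultures, so the p-values cover sample-to-sample spread that may be technical.

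ES cells resemble the naive epiblast of the embryo before implantation. On leaving that state they pass through a primed, postimplantation-like epiblast state before they take on a germ layer fate, and neural cells are one of its products. Fgf5 encodes a secreted fibroblast growth factor and is the classical marker of the postimplantation epiblast, and Otx2 encodes a homeodomain factor of the epiblast and anterior neural tissue. Pim2 encodes a serine/threonine kinase that promotes survival and growth, and Cd24a encodes a small glycoprotein anchored at the cell surface. Sall2 encodes a zinc finger factor of the spalt family, and Tead2 encodes a TEA domain factor that binds DNA with the coactivators YAP and TAZ.

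The probe sets are 98845_at for Fgf5 (GRCm38.p6 chr5:98254184-98277033), 101926_at and 161233_at for Pim2 (chrX:7878306-7883432), and 100600_at for Cd24a (chr10:43579169-43584265). Sall2 (chr14:52311177-52328670) has 162929_at and 169025_i_at, and Tead2 (chr7:45215792-45233468) has 96940_at and 166996_r_at. These positions are those of the genes in RefSeq, not of the probes. A suffix _i or _r marks a probe set for which the usual rules of probe choice were relaxed.

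The promoters of 3 genes are shown because Fgf5 and Pim2 peaked outside the Sox1-positive sort and Tead2, on 96940_at, within it. They are the 250 bases before the annotated start in RefSeq (GRCm38.p6), on the plus strand, and capitals mark matches on either strand to 5 motifs. The motifs are GGGCGG (GC box), TAATCC (bound by OTX factors), GGAATG (bound by TEAD factors), CACGTG (E-box) and ATTTGCAT (the octamer bound by POU factors). No matches overlapped.
Fgf5, chr5:98253934-98254183: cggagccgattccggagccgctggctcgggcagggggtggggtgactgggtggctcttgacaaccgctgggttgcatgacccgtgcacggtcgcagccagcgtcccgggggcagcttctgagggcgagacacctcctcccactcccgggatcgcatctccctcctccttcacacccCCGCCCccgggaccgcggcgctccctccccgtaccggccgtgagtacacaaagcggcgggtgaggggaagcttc
Pim2, chrX:7878056-7878305: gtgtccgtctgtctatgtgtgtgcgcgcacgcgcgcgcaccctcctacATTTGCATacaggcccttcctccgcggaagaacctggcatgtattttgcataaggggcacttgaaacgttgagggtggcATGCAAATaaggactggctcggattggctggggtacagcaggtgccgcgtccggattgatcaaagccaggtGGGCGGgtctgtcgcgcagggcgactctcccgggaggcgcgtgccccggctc
Tead2, chr7:45215542-45215791: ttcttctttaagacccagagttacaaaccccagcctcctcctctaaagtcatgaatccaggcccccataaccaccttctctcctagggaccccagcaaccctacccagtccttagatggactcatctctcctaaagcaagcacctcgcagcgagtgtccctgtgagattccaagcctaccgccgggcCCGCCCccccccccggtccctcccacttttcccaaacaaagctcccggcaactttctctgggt

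Each of the 3 promoters held 1 GC box, which began 74 bases before the start in Fgf5, 52 in Pim2 and 63 in Tead2. Among 32851 RefSeq promoters of this length, 32.7% held a GC box. The Pim2 promoter also held 2 octamers, 202 and 123 bases before the start and on opposite strands. Of all promoters 1.6% held an octamer, and 0.0974% held 2 or more. No match to the OTX motif (6.25% of all promoters), the TEAD motif (12.6%) or the E-box (6.02%) lay in these windows, and the 2 Sall2 windows held none of the 5 motifs. A match is a description of the letters and was not set against any binding data.

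The signal is a linear intensity per probe set and array, as deposited. Differences are of log2(intensity + 16), which understates changes of low signals. A probe set was tested if its mean intensity reached the 30th percentile of its chip, which 25690 of the 36701 did. Of the member probe sets 6 of 8 did. Fgf5 98845_at (mean 68.3, at percentile 27.2 of a chip whose threshold was 78.6) and Pim2 161233_at (mean 53.5, percentile 22.4) did not, and their differences are given from a fit with no filter. A call is an adjusted p under 0.05 in limma, with Benjamini-Hochberg adjustment over the probe sets of all 3 chips. The Sox1-positive cells (n = 3) and the other aggregates (n = 4) each pool days and sorts, so their SD holds those differences too. In bulk samples fewer cells of a type and less RNA per cell cannot be told apart.

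Median intensities lay between 177 and 278 over the 30 arrays, and no 2 arrays of a chip shared more than 1 value. The ratio of the 3′ to the 5′ actin probe sets, a sign of RNA quality, was 1.34 in day 5 Sox1-positive cells, 1.33 in day 2 E-cadherin-negative cells and 1.70 in ES 3 on the U74Av2 chip, against 0.939 to 1.15 in the others. Sox1 (92342_at) had 308, 310 and 252 in Sox1-positive cells of days 3, 4 and 5. It had 152 on day 1, 251 and 253 in the E-cadherin-negative and E-cadherin-positive cells of day 2, and 241 in Sox1-negative cells of day 3, against 138 to 173 in ES cells. The day 5 value of Sox1 thus lay between those of the day 2 sorts, and Sox1 was not called between Sox1-positive cells and the other aggregates (adjusted p = 0.324, limma). Cdh1 (98140_at), the gene of E-cadherin, had 565 in E-cadherin-negative and 572 in E-cadherin-positive cells of day 2, although these were sorted on its protein. Between ES samples 8.19% to 13.9% of tested probe sets differed by 2-fold or more, a yardstick for the differences between single samples.

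**Figure D1:**
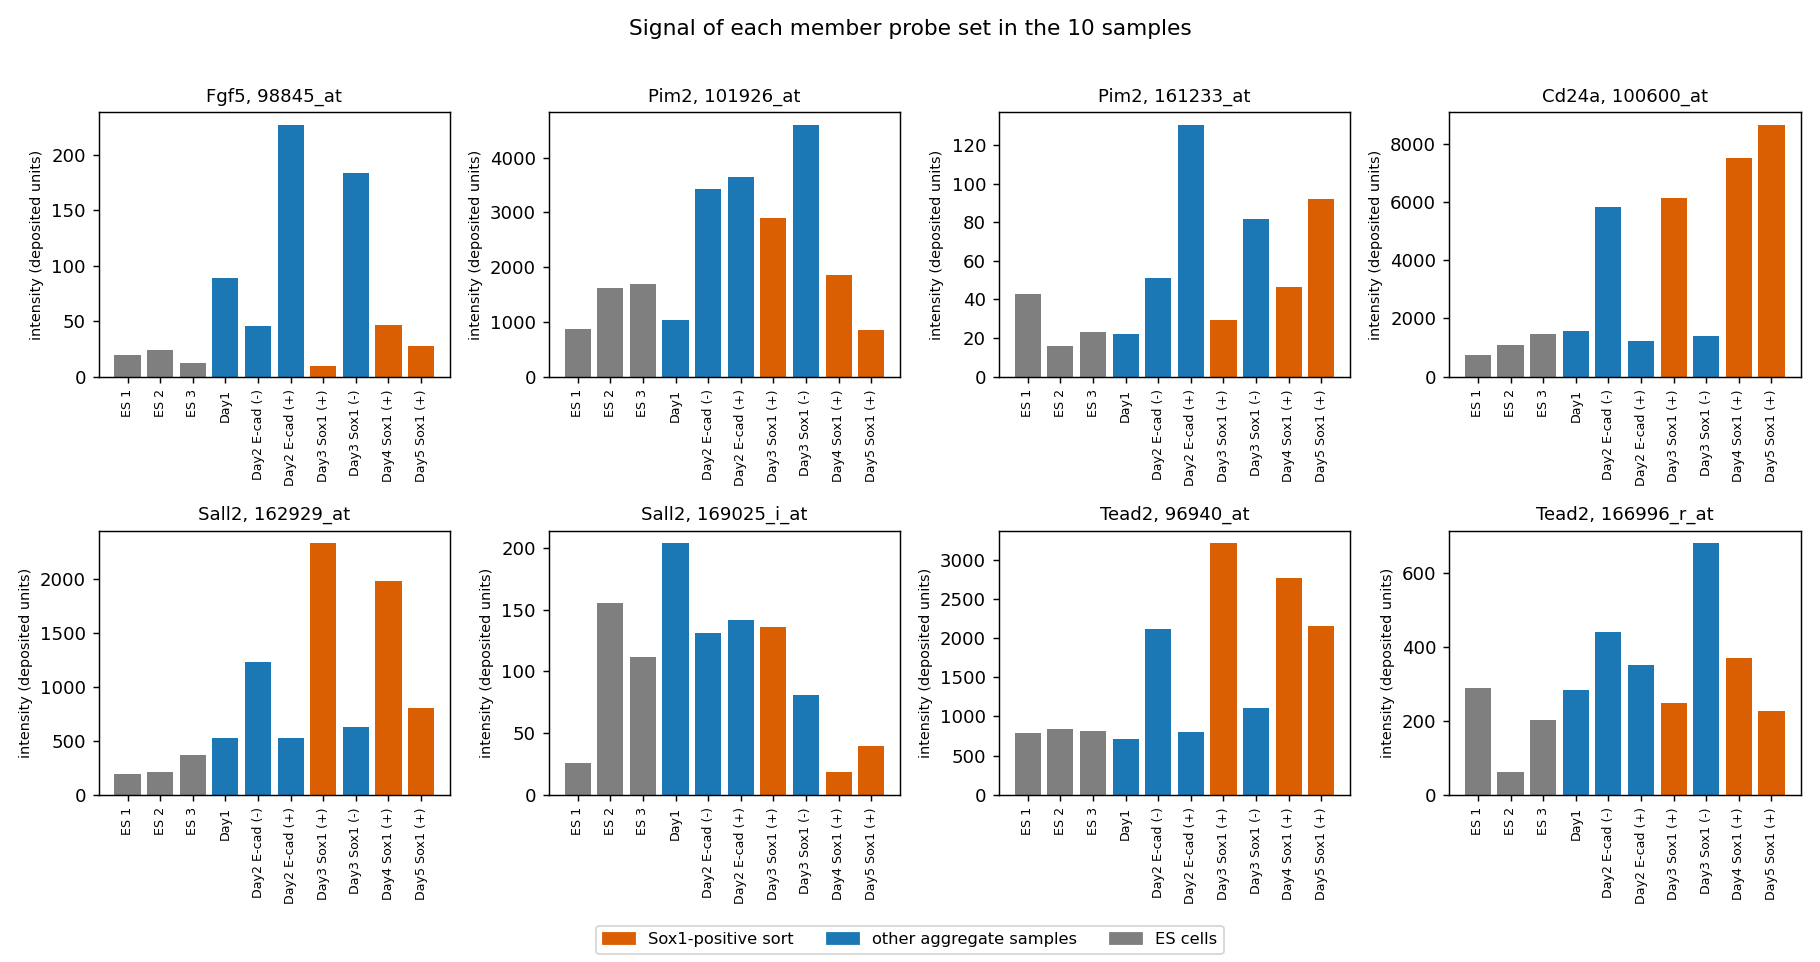
Intensity (deposited units, linear axis from 0) of the 8 member probe sets in each of the 10 samples, ordered by day, with orange bars for Sox1-positive cells, blue for the other aggregates and grey for ES cells. Fgf5 peaks at 227 in day 2 E-cadherin-positive cells, while Cd24a reaches 6125 to 8647 in Sox1-positive cells and 5818 in day 2 E-cadherin-negative cells.

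Fgf5, the growth factor ligand, had its highest signals in aggregate cells outside the Sox1-positive sort. Its signal was 9.70, 46.4 and 27.5 in Sox1-positive cells of days 3, 4 and 5. It was 88.8 on day 1, 45.3 in E-cadherin-negative and 227 in E-cadherin-positive cells of day 2, and 183 in Sox1-negative cells of day 3, against 19.1, 24.2 and 12.5 in the ES samples. All 4 of the other aggregates lay above all ES samples, and all but the E-cadherin-negative cells lay above the highest Sox1-positive sample. How many of all probe sets separate in this way was not counted. The mean of Fgf5 was 27.9 ± 18.3 in Sox1-positive cells (SD, n = 3), 136 ± 83.5 in the other aggregates (n = 4) and 18.6 ± 5.86 in ES cells (n = 3).

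Between groups Fgf5 differed by -1.69 ± 0.45 (SE) in Sox1-positive cells relative to the other aggregates, with an adjusted p of 0.0809 in the limma fit with no filter (unadjusted p = 0.00295). The other aggregates differed from ES cells by 1.95 ± 0.45 (adjusted p = 0.216, unadjusted p = 0.00107), and Sox1-positive cells from ES cells by 0.27 ± 0.48 (adjusted p = 0.84). None of the 3 passed the threshold over all 36701 probe sets. From low to high, the gaps between neighbouring groups that were wider than the range of the ES samples (0.50 on the log2 scale) lay below day 2 E-cadherin-negative cells, below day 1 and below day 3 Sox1-negative cells. The 2 highest groups, day 3 Sox1-negative and day 2 E-cadherin-positive cells, were 0.28 apart, which is less than that range.

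Pim2, the survival kinase, had on 101926_at its highest signals on days 2 and 3 in all sorts. The signal was 2898, 1863 and 848 in Sox1-positive cells of days 3, 4 and 5. It was 1039 on day 1, 3423 in E-cadherin-negative and 3651 in E-cadherin-positive cells of day 2, and 4595 in Sox1-negative cells of day 3, against 878, 1612 and 1684 in ES cells. The groups overlapped, since day 1 lay within the ES range and day 5 below it. No difference was called for it: the value was -0.74 ± 0.52 in Sox1-positive cells relative to the other aggregates (adjusted p = 0.464), 1.05 ± 0.52 in the other aggregates relative to ES cells (adjusted p = 0.487) and 0.31 ± 0.55 in Sox1-positive relative to ES cells (adjusted p = 0.795, limma). No neighbouring groups in its order of levels were further apart than the ES samples (0.93).

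The second Pim2 probe set, 161233_at, had low signals of 29.4, 46.3 and 92.2 in Sox1-positive cells of days 3, 4 and 5. It had 22.1 on day 1, 51.2 and 130 in the E-cadherin-negative and E-cadherin-positive cells of day 2 and 81.8 in Sox1-negative cells of day 3, against 42.8, 15.7 and 23.1 in ES cells. Both probe sets were higher in day 2 E-cadherin-positive cells and day 3 Sox1-negative cells than in any ES sample, but they parted on day 5, where 161233_at had its second highest value and 101926_at its lowest. Their Pearson correlation over the 10 samples was 0.34.

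Cd24a, the surface glycoprotein, went against the expectation. Its signal was 6125, 7520 and 8647 in Sox1-positive cells of days 3, 4 and 5. It was 1563 on day 1, 5818 in E-cadherin-negative and 1216 in E-cadherin-positive cells of day 2, and 1386 in Sox1-negative cells of day 3, against 752, 1074 and 1470 in ES cells. The samples fell apart into 4 with high signals, the E-cadherin-negative cells of day 2 among them, and 6 with low ones. The only gap in its order wider than the ES range (0.95) lay between these, at 1.89 on the log2 scale, below day 2 E-cadherin-negative cells. How many of all probe sets split the samples in this way was not counted.

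The mean signal of Cd24a was 7431 ± 1263 in Sox1-positive cells (SD, n = 3), 2496 ± 2220 in the other aggregates (n = 4) and 1099 ± 359 in ES cells (n = 3). It rose in Sox1-positive cells by 1.88 ± 0.46 relative to the other aggregates (adjusted p = 0.0447, limma) and by 2.78 ± 0.50 relative to ES cells (adjusted p = 0.00662). The other aggregates differed from ES cells by 0.89 ± 0.46 (adjusted p = 0.514).

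Tead2, the TEA domain factor, had on 96940_at the same samples at the top, which was likewise not counted over all probe sets. The signal was 3213, 2772 and 2160 in Sox1-positive cells of days 3, 4 and 5. It was 707 on day 1, 2115 in E-cadherin-negative and 804 in E-cadherin-positive cells of day 2, and 1109 in Sox1-negative cells of day 3, against 788, 841 and 817 in ES cells. The ES samples were close together, with a range of 0.09 on the log2 scale, and the E-cadherin-negative cells lay just under the lowest Sox1-positive sample. Tead2 rose in Sox1-positive cells by 1.30 ± 0.32 relative to the other aggregates (adjusted p = 0.0441, limma) and by 1.70 ± 0.34 relative to ES cells (adjusted p = 0.0109). The other aggregates differed from ES cells by 0.39 ± 0.32 (adjusted p = 0.688).

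The second Tead2 probe set, 166996_r_at, did not show this order. It had 249, 370 and 227 in Sox1-positive cells of days 3, 4 and 5. It had 284 on day 1, 441 and 352 in the E-cadherin-negative and E-cadherin-positive cells of day 2 and 680 in Sox1-negative cells of day 3, against 288, 61.4 and 202 in ES cells. Its ES samples spanned 1.98 on the log2 scale, wider than any gap in its order, and none of its differences between groups was called (-0.57, 1.33 and 0.76, with adjusted p of 0.545, 0.352 and 0.396, limma). The correlation of the 2 Tead2 probe sets over the 10 samples was 0.22.

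Sall2, the zinc finger factor, was higher in every aggregate sample than in any ES sample on 162929_at, a separation not counted over all probe sets. The signal was 2327, 1973 and 799 in Sox1-positive cells of days 3, 4 and 5. It was 528 on day 1, 1227 in E-cadherin-negative and 522 in E-cadherin-positive cells of day 2, and 629 in Sox1-negative cells of day 3, against 195, 211 and 369 in ES cells. Day 5 lay below day 2 E-cadherin-negative cells, so Sox1-positive cells and the other aggregates overlapped. Sall2 rose in Sox1-positive cells by 2.56 ± 0.44 relative to ES cells (adjusted p = 0.00618, limma). The difference was 1.16 ± 0.41 relative to the other aggregates (adjusted p = 0.134), and 1.40 ± 0.41 between the other aggregates and ES cells (adjusted p = 0.279).

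The probe set 169025_i_at of Sall2 gave low and scattered signals. It had 136, 18.6 and 39.1 in Sox1-positive cells of days 3, 4 and 5. It had 204 on day 1, 131 and 142 in the E-cadherin-negative and E-cadherin-positive cells of day 2 and 81.1 in Sox1-negative cells of day 3, against 25.6, 156 and 111 in ES cells. Its ES samples spanned 2.04 on the log2 scale. None of its differences was called (-1.17, 0.62 and -0.55, with adjusted p of 0.293, 0.741 and 0.661, limma), and its correlation with 162929_at was -0.10.

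**Figure D2:**
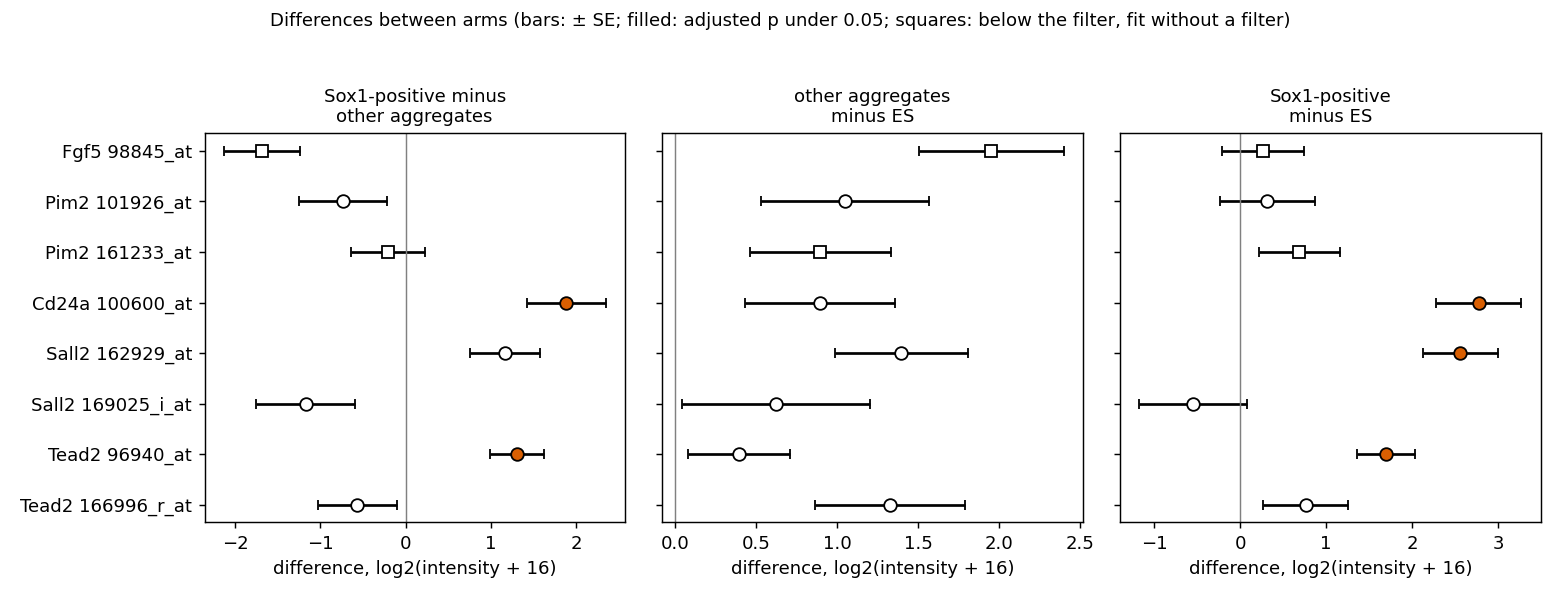
Difference in log2(intensity + 16) for each member probe set (points, bars ± SE) in the 3 comparisons between groups, filled where the adjusted p was under 0.05 and drawn as squares where the probe set was below the filter. Cd24a and Tead2 96940_at are filled at 1.88 and 1.30 relative to the other aggregates, and these and Sall2 162929_at are filled relative to ES cells.

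Of the 6 tested member probe sets 2 rose and 0 fell in Sox1-positive cells relative to the other aggregates, where 2.1% of all 25690 tested probe sets rose and 2.3% fell. The 6 include both probe sets of Sall2 and both of Tead2. Fgf5 was below the filter and is not among them, at -1.69 in the fit with no filter (adjusted p = 0.0809, limma). The median over the 6 was 0.30, against -0.03 over all. Relative to ES cells 3 of the 6 rose in Sox1-positive cells and 0 fell (5.51% of all rose and 4.72% fell), with a median of 1.23 against -0.0033 over all. In the other aggregates relative to ES cells 0 of the 6 passed, while 0% of all rose and 0.0817% fell in limma. At an unadjusted p under 0.05, 2 of the 6 were higher there, as were 1593 of all 25690, and the median over the 6 was 0.97 against 0.03. These 3 comparisons share samples, so their values are not independent of each other.

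The call of Cd24a and Tead2 relative to the other aggregates depended on the samples used and on the processing. It was lost without any single sample other than the day 2 E-cadherin-negative cells, with adjusted p from 0.0513 to 0.152 for Cd24a and from 0.0561 to 0.122 for Tead2 and differences from 1.65 to 2.02 and from 1.11 to 1.46. It was also lost with a pseudocount of 1 (adjusted p of 0.0547 for Cd24a and 0.0529 for Tead2), with no filter (0.0678 and 0.0672) and in the fit of the compared groups alone (0.0812 and 0.0909). Without the day 2 E-cadherin-negative cells all 3 of Cd24a (2.40, adjusted p = 0.000397), Tead2 (1.63, adjusted p = 0.00133) and Sall2 (1.44, adjusted p = 0.0419) were called. Relative to ES cells the rises of Cd24a, Sall2 and Tead2 were called in all 19 alternatives run, with adjusted p up to 0.0292, 0.0299 and 0.041.

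Single samples were set against the 3 ES samples in a fit that takes its spread from the ES samples alone, so each lone sample is assumed to vary as they do, and a call compares that sample, not its day or sort, with ES cells. In the day 3 Sox1-positive sample 3 members were called higher, Cd24a by 2.51 (adjusted p = 0.0413), Sall2 by 3.15 (adjusted p = 0.0346) and Tead2 by 1.96 (adjusted p = 0.025), where 0.553% of all probe sets rose. On day 4 these 3 were called at 2.81, 2.91 and 1.75 (adjusted p of 0.0283, 0.0379 and 0.0324, with 0.868% of all). On day 5 Cd24a (3.01, adjusted p = 0.0147) and Tead2 (1.39, adjusted p = 0.0385) were called (2% of all), and Sall2 was at 1.63 (adjusted p = 0.103). Without ES 2 none of these 8 calls held. With no filter 7 of the 8 were lost (adjusted p from 0.0717 to 0.108), all but Cd24a on day 5. Without ES 3 the 3 Tead2 calls were lost (0.056, 0.0683 and 0.0816). A pseudocount of 1 lost Cd24a on day 3 (0.0622), Sall2 on day 4 (0.0548) and Tead2 on day 5 (0.0512), and quantile scaling lost Cd24a on day 3 (0.0522).

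In the E-cadherin-negative cells of day 2, Cd24a was at 2.44 (adjusted p = 0.0933), Sall2 at 2.23 (adjusted p = 0.132) and Tead2 at 1.36 (adjusted p = 0.121) relative to ES cells. None was called, where 0.0195% of all probe sets rose, and at an unadjusted p under 0.05 this sample had 4 of the 6 members and 1841 of all probe sets higher. Under the filter at the 60th percentile all 3 were called, with adjusted p of 0.0302, 0.0499 and 0.0449. Day 1, E-cadherin-positive cells of day 2 and Sox1-negative cells of day 3 had 0 members called, as they had 0% of all probe sets higher in limma, with 672, 935 and 784 of all higher at an unadjusted p under 0.05. In these 3 samples, in the order named, Fgf5 was at 1.61, 2.82 and 2.54 relative to ES cells in the fit with no filter. Pim2 101926_at was at -0.36, 1.44 and 1.77 and Sall2 162929_at at 1.04, 1.03 and 1.29. Cd24a was at 0.55, 0.20 and 0.38 and Tead2 96940_at at -0.20, -0.02 and 0.44. None of these was called.

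On day 2 the E-cadherin-negative cells differed from the E-cadherin-positive ones by 2.24 for Cd24a, 1.38 for Tead2 96940_at and 1.21 for Sall2 162929_at. Fgf5 differed by -1.98 and Pim2 101926_at by -0.09, while Tead2 166996_r_at was at 0.31 and Sall2 169025_i_at at -0.10. These have 1 sample a side and no test. Of the 6 tested member probe sets 3 were higher by 1 or more on the log2 scale and 0 lower, where 7.71% of all were higher and 5.85% lower.

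On day 3 the Sox1-positive cells differed from the Sox1-negative ones by 2.13 for Cd24a, 1.52 for Tead2 96940_at and 1.86 for Sall2 162929_at. Fgf5 differed by -2.96 and Pim2 101926_at by -0.66, the second of which is less than the range of its ES samples. Of the 6 tested 3 were higher by 1 or more and 1 lower, the Tead2 probe set 166996_r_at at -1.39 (7.6% of all were higher and 7.77% lower), and Sall2 169025_i_at was at 0.64. The second probe sets of Tead2 and Sall2 thus had opposite signs on days 2 and 3. Each of these differences lay within the range of that probe set's ES samples (1.98 for Tead2 and 2.04 for Sall2). Pim2 161233_at, below the filter, differed by -1.12 on day 2 and by -1.11 on day 3, both wider than the range of its ES samples (0.89). At a pseudocount of 64 its day 3 difference was -0.64. With a pseudocount of 1 in place of 16 the Fgf5 differences were -2.30 and -4.11, and with 64 they were -1.41 and -1.75.

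Among Sox1-positive cells the members parted over time. Day 5 differed from day 3 by 0.50 for Cd24a, -0.57 for Tead2 96940_at, -1.52 for Sall2 162929_at and -1.75 for Pim2 101926_at. The other Pim2 probe set, 161233_at, went the opposite way, at 1.25, which is wider than the range of its ES samples (0.89). With Sall2 169025_i_at at -1.46, 3 of the 6 tested were lower by 1 or more and 0 higher, where 6.22% of all were lower and 6.59% higher. Cd24a had its highest value on day 5, whereas Sall2 162929_at and Tead2 96940_at had theirs on day 3. Tead2 166996_r_at differed by -0.12 between days 5 and 3, and its highest Sox1-positive value was on day 4. Fgf5, at 27.5 on day 5 against 9.70 on day 3, differed by 0.76, and both values lay in the lowest part of the chip's range.

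**Figure D3:**
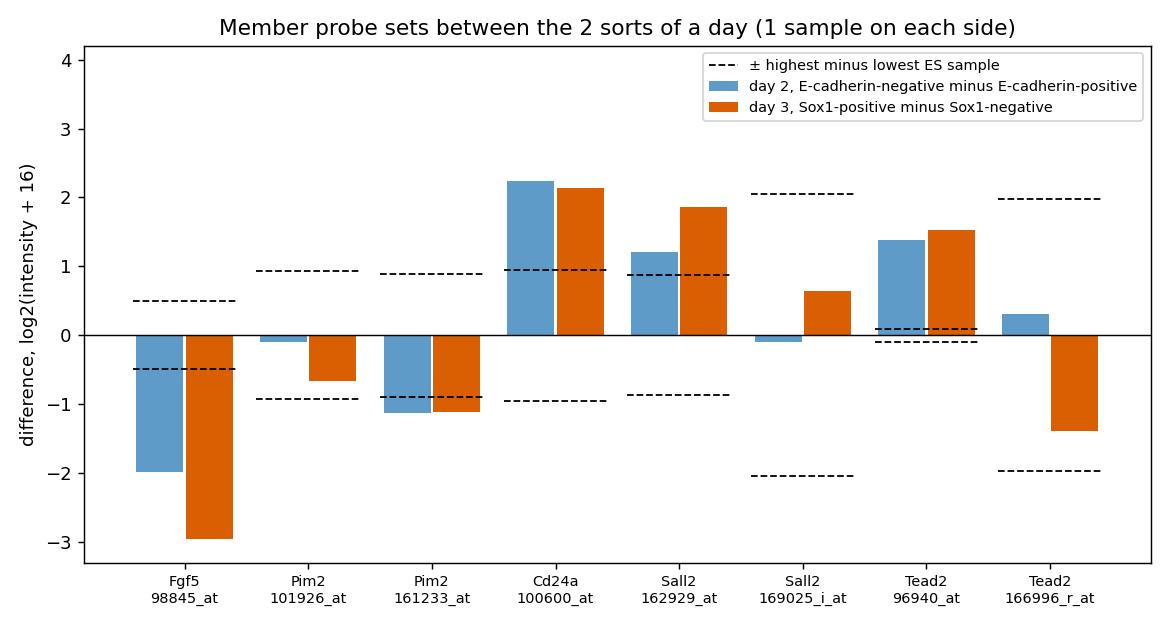
Difference in log2(intensity + 16) between the sorts of day 2 (blue, E-cadherin-negative minus E-cadherin-positive) and of day 3 (orange, Sox1-positive minus Sox1-negative) for each member probe set, 1 sample on each side. Dashed lines show the highest minus the lowest ES sample in both directions. Cd24a, Sall2 162929_at and Tead2 96940_at lie above these lines in both pairs, and Fgf5 and Pim2 161233_at below them.

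Over the 10 samples Cd24a correlated with Tead2 96940_at at Pearson's r = 0.93 and with Sall2 162929_at at 0.87, and Sall2 with Tead2 at 0.89. Fgf5 correlated with Pim2 101926_at at 0.49 and with Cd24a at -0.26. These describe samples that share days and sorts. By the same measure the genes most like Fgf5 were Oasl2 (0.91), D330041H03Rik (0.90) and Capns2 (0.89), and those most like Pim2 were Gstt2 (0.95), Utrn (0.94) and Eef1b2 (0.92), each among some 12940 genes. Cd24a was most like Cpe, Bcr and Dchs1 (0.99 each), Sall2 like Pgap4 (0.98), Coasy (0.97) and Fbn2 (0.95), and Tead2 like Usp6nl (0.99), Ube2e2 (0.98) and Lrrc58 (0.98). A correlation above 0.9 was shared with 432 genes for Cd24a, 230 for Tead2 and 73 for Sall2, but with 5 for Pim2 and 1 for Fgf5.

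Of 24 other listed genes of the epiblast state 23 were tested. In Sox1-positive cells relative to the other aggregates 8 fell, 1 rose and 14 did not pass, with a median of -1.27 against -0.03 over all probe sets. Of all tested probe sets 2.3% fell and 2.1% rose in that comparison. The largest falls were those of Utf1 (-3.53, adjusted p = 0.00555), a chromatin-bound factor of pluripotent cells, and Tdgf1 (-2.69, adjusted p = 0.000802), the Nodal co-receptor. The gene that rose was Car14 (1.28, adjusted p = 0.0273), a carbonic anhydrase. Utf1 was highest in ES 2 and Tdgf1 in ES 1. In the other aggregates they differed from ES cells by -0.34 and -0.18 (adjusted p = 0.829 and 0.815, limma). In Sox1-positive cells they differed from ES cells by -3.87 and -2.87 (adjusted p = 0.0017 and 0.000223). Relative to ES cells 7 of the 23 fell and 3 rose in Sox1-positive cells, where 4.72% of all tested probe sets fell and 5.51% rose. The median of these 23 relative to ES cells was 0.12 on day 1, -0.71 in E-cadherin-negative and 0.20 in E-cadherin-positive cells of day 2, -0.32 in Sox1-positive and 0.40 in Sox1-negative cells of day 3, -0.70 on day 4 and -1.29 on day 5. With 1 sample left out, 3 to 12 of the 23 fell and 0 to 3 rose in Sox1-positive cells relative to the other aggregates. In the other aggregates relative to ES cells 0 of the 23 were called in limma, and at an unadjusted p under 0.05, 2 were higher and 1 lower.

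Of these 23 genes 8 had their highest signal in Sox1-negative cells of day 3, as Pim2 did, and 2 in E-cadherin-positive cells of day 2, as Fgf5 did. The other 13 were highest elsewhere: 3 in Sox1-positive cells, 3 on day 1, 2 in E-cadherin-negative cells of day 2 and 5 in ES samples. How many of all tested genes peak in each sample was not counted, so these counts have no background to be judged by. Dnmt3b and Lef1 are named here after their values were seen. Dnmt3b, a de novo DNA methyltransferase, had 2306, 2190 and 1016 in Sox1-positive cells of days 3, 4 and 5. It had 2857 on day 1, 3021 and 7129 in the E-cadherin-negative and E-cadherin-positive cells of day 2 and 7483 in Sox1-negative cells of day 3, against 1804 to 3075 in ES cells. Its 2 highest samples were those of Fgf5, but the difference of -1.42 in Sox1-positive cells relative to the other aggregates did not pass (adjusted p = 0.0833, limma). Lef1, an effector of Wnt signalling, had 3896 in Sox1-negative cells of day 3 and 861 to 1663 in Sox1-positive cells, against 1559 to 1729 in ES cells, and the same difference was -0.999 (adjusted p = 0.106). Sox3, an early neural and epiblast factor also named after its values were seen, instead had 3621 to 4838 in Sox1-positive cells. It had 3771 in day 2 E-cadherin-negative cells, against 611 to 764 in ES cells. Its difference of 1.42 in Sox1-positive cells relative to the other aggregates did not pass either (adjusted p = 0.0627, limma). Relative to ES cells Sox3 rose by 2.62 in Sox1-positive cells (adjusted p = 0.00395).

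**Figure D4:**
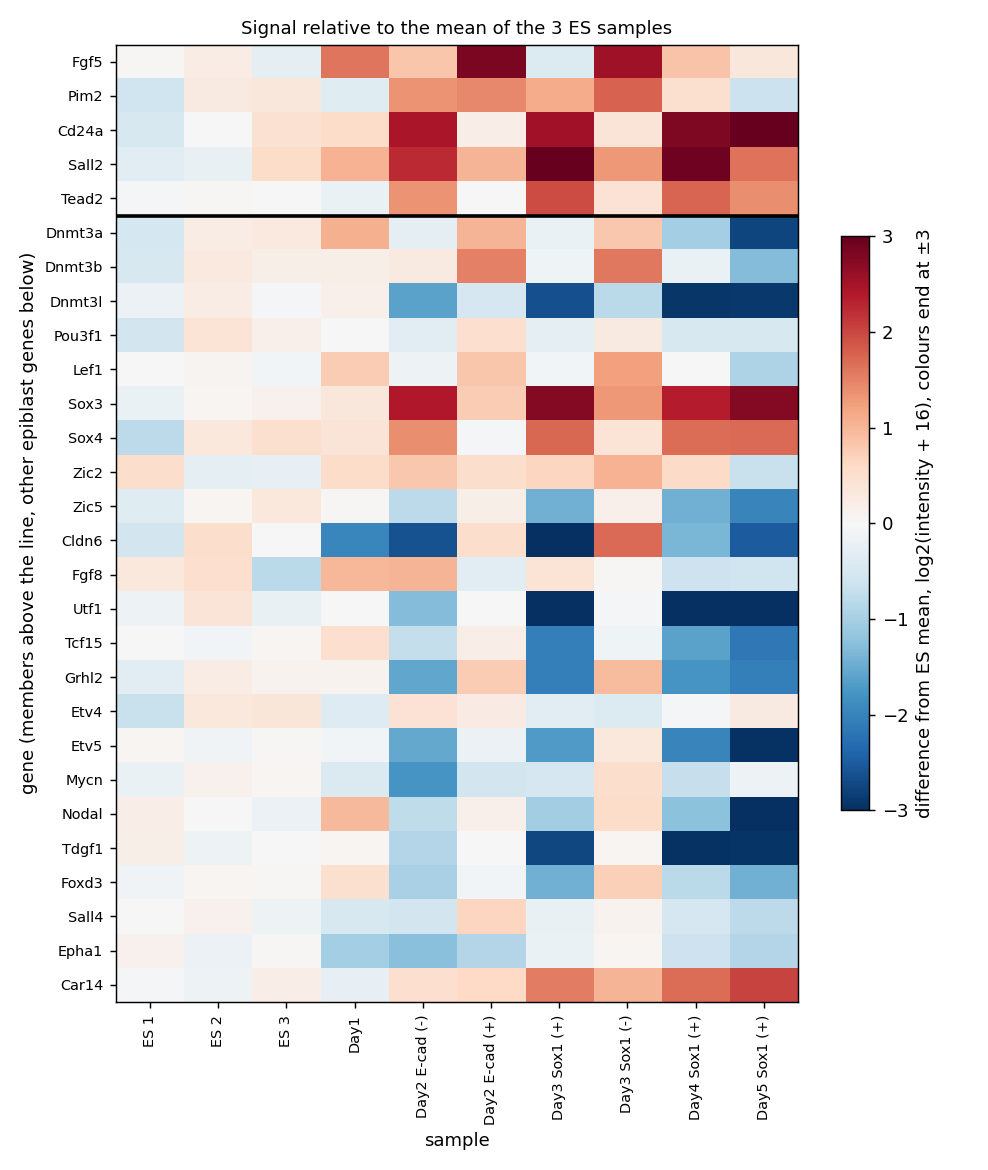
Difference of each sample from the mean of the 3 ES samples in log2(intensity + 16) (colour, red higher and blue lower) for the 5 members, with 1 probe set each, above the line and 23 other epiblast genes below it. Fgf5 is reddest in day 2 E-cadherin-positive and day 3 Sox1-negative cells, and Cd24a, Sall2, Tead2 and Sox3 in Sox1-positive and day 2 E-cadherin-negative cells.

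Of 16 listed relatives of the members 13 were tested. Siglecg, which is on this list, belongs to no member's gene family. In Sox1-positive cells relative to the other aggregates 1 of the 13 fell and 0 rose (median -0.44), where 2.3% of all tested probe sets fell and 2.1% rose. The gene that fell was Fgf4, the growth factor of naive cells, which is also 1 of the listed naive ES genes. Its signal was 914, 869 and 828 in Sox1-positive cells of days 3, 4 and 5, against 1314 to 2822 in the other aggregates (-1.22, adjusted p = 0.0248, limma). With 1 sample left out 0 to 2 of the 13 fell. Relative to ES cells 2 relatives rose and 4 fell in Sox1-positive cells, where 5.51% of all tested probe sets rose and 4.72% fell. Fgf15, a ligand of the developing brain, rose by 1.93 (adjusted p = 0.0101) and Sall3 by 0.94 (adjusted p = 0.00935), whereas Fgf4 fell by 1.79 (adjusted p = 0.00305) and Fgf17 fell by 1.47 (adjusted p = 0.018).

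The kinases Pim1 and Pim3 were lower in every aggregate sample but not in step with Pim2. Pim1 had 783 to 1797 in Sox1-positive cells and 1303 to 2162 in the other aggregates, against 2508 to 3015 in ES cells, and it fell by 1.23 in Sox1-positive cells relative to ES cells (adjusted p = 0.0201, limma). Pim3 fell by 1.48 in the same comparison (adjusted p = 0.0063). The differences in the other aggregates relative to ES cells were -0.68 for Pim1 (adjusted p = 0.395) and -0.85 for Pim3 (adjusted p = 0.263), against 1.05 for Pim2.

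Tead1, with 1853 to 2396 in Sox1-positive cells, 1452 to 2023 in the other aggregates and 2009 to 2369 in ES cells, was not called (0.38 between Sox1-positive cells and the other aggregates, adjusted p = 0.26). Tead4 was at -0.16 in that comparison (adjusted p = 0.677), and Tead3 was below the filter. Of 8 tested coactivators and targets of TEAD factors 0 were called in limma in any of the 3 comparisons, with medians of 0.28 in Sox1-positive cells relative to the other aggregates, -0.27 in the other aggregates relative to ES cells and 0.27 in Sox1-positive relative to ES cells. At an unadjusted p under 0.05, 1 was higher in each of these comparisons, and 1 was lower in the last. The coactivator gene Yap1 had 1912 to 2460 in Sox1-positive cells, 1795 to 2554 in the other aggregates and 1971 to 2321 in ES cells, and it was chosen after its values were seen. Of 12 tested FGF receptors and feedback genes 0 rose and 2 fell in Sox1-positive cells relative to the other aggregates (median 0.11), namely Etv5 (-1.84, adjusted p = 0.0363) and Spry4 (-1.05, adjusted p = 0.0295), and 0 to 2 fell with 1 sample left out. Etv5 is also 1 of the listed epiblast genes that fell, so these lists are not separate. Otx1, the relative of Otx2, was below the filter, with 38.9 to 110 in Sox1-positive cells, 52.2 to 128 in the other aggregates and 26.8 to 121 in ES cells.

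Markers of other cell states differed between the same samples. The summed intensity of 16 neural progenitor genes was 32372 to 41034 in Sox1-positive cells, 14157 to 20537 in the other aggregates (highest in day 2 E-cadherin-negative cells) and 13573 to 16065 in ES cells, and 8 of the 16 rose in Sox1-positive cells relative to the other aggregates (2 to 9 with 1 sample left out). That of 17 naive ES genes was 3748 to 7492, 9868 to 27355 and 39628 to 50365 in the same 3 groups, lowest among the other aggregates in day 2 E-cadherin-negative cells. Of these 17, 11 fell in Sox1-positive cells relative to the other aggregates (5 to 13 with 1 sample left out). Of all tested probe sets 2.1% rose and 2.3% fell in that comparison. In the other aggregates relative to ES cells 2 of the 17 fell (0 to 2 with 1 sample left out), where 0.0817% of all fell. The median there was -1.24. At an unadjusted p under 0.05, 11 were lower and 0 higher, where 2845 of all 25690 differed in either direction. Pou5f1, the pluripotency factor Oct4, was at 3139, 2203 and 575 in Sox1-positive cells, against 4024 in E-cadherin-negative and 11905 in E-cadherin-positive cells of day 2. The part of these cell states in the members' values was not tested.

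In Sox1-positive cells relative to the other aggregates 0 of 6 anterior neural, 0 of 12 neuronal, 0 of 7 mesoderm and primitive streak, 0 of 6 fibroblast or feeder and 0 of 3 blood and endothelium genes were called in limma, and of 12 endoderm genes 1, Hhex, fell (-0.86, adjusted p = 0.0414). At an unadjusted p under 0.05 there were 1 anterior neural, 3 neuronal and 1 fibroblast gene higher, 2 mesoderm genes lower and 0 blood genes. Relative to ES cells 1 anterior neural, 3 neuronal and 1 fibroblast gene rose in Sox1-positive cells, and 1 mesoderm gene fell. In the day 5 sample alone the median of the 12 neuronal genes relative to ES cells was 1.99, against -0.0026 over all probe sets. The summed intensity of 13 neuronal genes was 12766, 10297 and 19841 in Sox1-positive cells of days 3, 4 and 5 and 15549 in day 2 E-cadherin-negative cells. It was 8648 to 9536 in the 3 remaining aggregate samples and 10498 to 10818 in ES cells. In the other aggregates relative to ES cells these 6 lists had 0 genes called in limma, and at an unadjusted p under 0.05 the neuronal and mesoderm lists had 2 genes higher and 1 lower each, and the fibroblast and blood lists 1 lower each. Summed intensities in Sox1-positive cells, the other aggregates and ES cells were 1930 to 2723, 2548 to 3398 and 1996 to 2984 for 10 mesoderm and primitive streak genes, and 4453 to 5761, 4342 to 5474 and 4869 to 5718 for 13 endoderm genes.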

How the data were processed

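The deposited values are 1 linear intensity per probe set and array on 3 chips, already scaled by the authors. The software that made them is not given in the sources used here. Probe sets were named through the platform's annotation with RefSeq symbols (29131 named 1 gene, 724 several and 6846 none). The 198 control probe sets were left out. The intensities were analysed as log2(intensity + 16) with limma 3.58.1 in R 4.3.3, lmFit and eBayes on each chip, in a fit of 3 groups (Sox1-positive cells, other aggregates, ES cells) and a fit of 8 groups for single samples. The code was tested on simulated data. Pairs of single samples got no test. Where a gene had several probe sets, each is given, and lists use the one whose mean log2 signal is highest. The number of arrays limits the precision. Named are all member probe sets, Sox1, Cdh1, Pou5f1, family relatives, up to 2 called genes each way per list, and the 3 genes most like each member. The members and lists were chosen with earlier results of these data known. Alternatives were quantile or upper-quartile scaling, pseudocounts of 1 and 64, no filter or the 60th percentile, a mean-variance trend, the compared groups alone, adjustment within a chip, and leaving out each sample. Figures were drawn with matplotlib 3.10.9.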

Additional observations from a re-analysis of the deposited data

How the results depend on the processing

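The direction of each called member difference was kept under every alternative run. The Cd24a and Tead2 calls relative to the other aggregates were lost in 12 of 19 alternatives each. Probe sets called between Sox1-positive cells and the other aggregates numbered 1131, with 622 under no filter, 371 in the fit of the compared groups alone and 130 to 2542 when 1 sample was left out (lowest without day 5, highest without day 2 E-cadherin-negative cells). Between the other aggregates and ES cells there were 21, with 35 at a pseudocount of 64, 33 with a mean-variance trend, 34 with adjustment within each chip and 8 to 27 with 1 sample left out. Between Sox1-positive and ES cells there were 2627, with 1235 to 3204. Calls summed over the 7 single samples numbered 1949, with 3028 at a pseudocount of 64, 678 under no filter, 2994 under the filter at the 60th percentile, 3301 with a trend, and 218 to 5464 with 1 ES sample left out. The member values that changed sign under an alternative were not called. They were Pim2 101926_at in Sox1-positive relative to ES cells (-0.0857 to 0.791 with 1 sample left out, lowest without day 3), and, relative to ES cells with 1 ES sample left out, Cd24a in day 2 E-cadherin-positive cells (-0.0470 to 0.429) and Sall2 169025_i_at in day 2 E-cadherin-negative cells (-0.00710 to 1.02) and in day 3 Sox1-negative cells (-0.606 to 0.416). The last was at -0.0668 with quantile scaling and -0.0585 at a pseudocount of 64. Tead2 96940_at in day 2 E-cadherin-positive cells was at 0.0108 with upper-quartile scaling and at -0.0435 to 0.00262 with 1 ES sample left out, and 166996_r_at on day 5 at -0.0818 to 0.906. The cause was not tested. The alternatives for day 5 minus day 3 and the list counts with 1 sample left out were chosen after seeing the data. No paired analysis was possible because only the ES samples carry replicate numbers.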
